A study of Rattus norvegicus with 21 samples.

Results

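The growth hormone and IGF axis of rat liver was followed through 9 genes, Ghr, Igf1, Igfals, Igfbp1, Igfbp2, Igfbp3, Igfbp4, Socs2 and Stat5b, chosen by name out of the 32623 genes in each of the 2 deposited tables. Each symbol had 1 row per table, and all 9 genes passed the filter on low counts in both tables. RNA was sequenced from 21 liver samples, 3 in each of 7 groups, to follow rats weaned early, with leucine given to 1 of the groups. The early-weaned Wistar rats of age 23 (EW d23) were set against controls of that age (CON d23), and those of age 63 (EH d63) against controls of that age (CH d63). In Sprague Dawley rats of age 211, a group weaned early that drank water with 1.5% leucine (EW_Leu d211) and one weaned early without it (Ew d211) stood beside controls (Con d211). Ages are taken here as days, as the labels' d23 implies. The labels give neither the sex of the rats, nor the day of early weaning, nor the feeding state at sampling, and they do not state that the samples came from separate animals. All p-values therefore measure the spread between these samples.

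Growth hormone acts on hepatocytes through its receptor, Ghr, whose signal runs through the kinase Jak2 to transcription factors such as Stat5b. Stat5b drives the genes of insulin-like growth factor 1 (Igf1) and of the acid-labile subunit (Igfals), and it also drives Socs2, an inhibitor that acts back on the receptor. In blood most IGF-1 travels in a complex with the binding protein Igfbp3 and the acid-labile subunit, while Igfbp1, Igfbp2 and Igfbp4 form smaller complexes. Igfbp1 is known as the member that insulin lowers and fasting raises, in part through the transcription factor FoxO1. In rodents hepatic Ghr, Igf1 and Igfals rise around and after weaning, when growth comes under growth hormone.

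The 250 bases before the transcription start are shown for Igfbp1 and Igfbp2, which fell with age, and for Igf1 and Igfals, which rose with it. They come from RefSeq on assembly GRCr8, which matched 8 of the 9 genes (Socs2 is named only). Capitals mark the letters CAAAACA, the core of the insulin response element known from the Igfbp1 promoter, searched on both strands as CAAAACA or TGTTTTG. The stretches are Igfbp1 at chr14:86261027-86261276, Igfbp2 at chr9:81864561-81864810, Igf1 at chr7:24172282-24172531 and Igfals at chr10:14403600-14403849, all on the plus strand. The Igf1 and Igfals starts lie 2924 and 6774 bases inside the span of the gene. Among the matched genes not shown, the Ghr start lies 100520 bases and the Stat5b start 226 bases inside it.
Igfbp1: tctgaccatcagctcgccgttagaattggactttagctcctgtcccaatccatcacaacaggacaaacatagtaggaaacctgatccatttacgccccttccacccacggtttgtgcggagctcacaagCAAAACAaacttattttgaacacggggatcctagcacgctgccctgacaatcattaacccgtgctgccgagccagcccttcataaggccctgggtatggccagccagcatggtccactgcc
Igfbp2: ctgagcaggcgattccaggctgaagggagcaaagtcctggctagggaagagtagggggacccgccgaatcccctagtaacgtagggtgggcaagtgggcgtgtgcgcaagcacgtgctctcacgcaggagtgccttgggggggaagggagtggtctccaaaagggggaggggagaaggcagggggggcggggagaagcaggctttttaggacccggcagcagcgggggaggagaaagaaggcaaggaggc
Igf1: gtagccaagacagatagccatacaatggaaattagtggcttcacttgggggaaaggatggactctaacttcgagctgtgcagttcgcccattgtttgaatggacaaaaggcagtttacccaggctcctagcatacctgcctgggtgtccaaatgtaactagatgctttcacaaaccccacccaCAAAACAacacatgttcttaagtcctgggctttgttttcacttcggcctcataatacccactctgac
Igfals: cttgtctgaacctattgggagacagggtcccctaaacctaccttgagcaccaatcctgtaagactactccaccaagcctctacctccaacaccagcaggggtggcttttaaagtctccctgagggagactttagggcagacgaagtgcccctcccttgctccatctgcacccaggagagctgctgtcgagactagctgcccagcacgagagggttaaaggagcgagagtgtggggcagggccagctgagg
The core was found 121 to 115 bases before the Igfbp1 start and 67 to 61 bases before the Igf1 start, and in neither of the other 2 stretches. It was held by 2 of the 8 matched genes and by 5.46% of 33469 promoters of the same length. A STAT5-type motif, TTCNNNGAA, was in 0 of the 8 and in 7.67% of all promoters. A FoxO-type motif, GTAAACA or TGTTTAC, was in 0 of the 8 and in 3.21% of all promoters. These counts say only which letters stand in these windows.

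The deposited tables place the genes on a rat build that they do not name, with Igfbp1 (ENSRNOG00000058780) at chr14:87448692-87453785 on the plus strand and Igfbp3 (ENSRNOG00000061910) at chr14:87457647-87465374 on the minus strand. The ends of these neighbours are 3861 bases apart. The library kit does not mark strand.

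Depth was even, with total estimated counts of 52054644 to 75118153 per library and 10250 to 11082 genes at an FPKM (fragments per kilobase of transcript, scaled to the depth of the library) of at least 1. The 2 tables were normalized separately, so levels set across strains are descriptions. Libraries 2 and 3 of EW d23 and library 2 of CH d63 had Eif2s3y and Kdm5d, both Y-linked, at 0.01 FPKM or below. The other 18 libraries had 9.08 to 17.8 FPKM of Eif2s3y. Library 2 of CH d63 also held 2368 FPKM of Cyp2c12, a cytochrome P450 of female rat liver. A further library stood apart within its group: library 3 of CON d23 had 12.8 FPKM of Gadd45b, against 332 and 398 in the other 2. The members' values in the Wistar comparisons are also given without some of these 4 libraries, for the calls and values that move most; the group means and the profiles compared at the end hold all libraries.

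**Figure D1:**
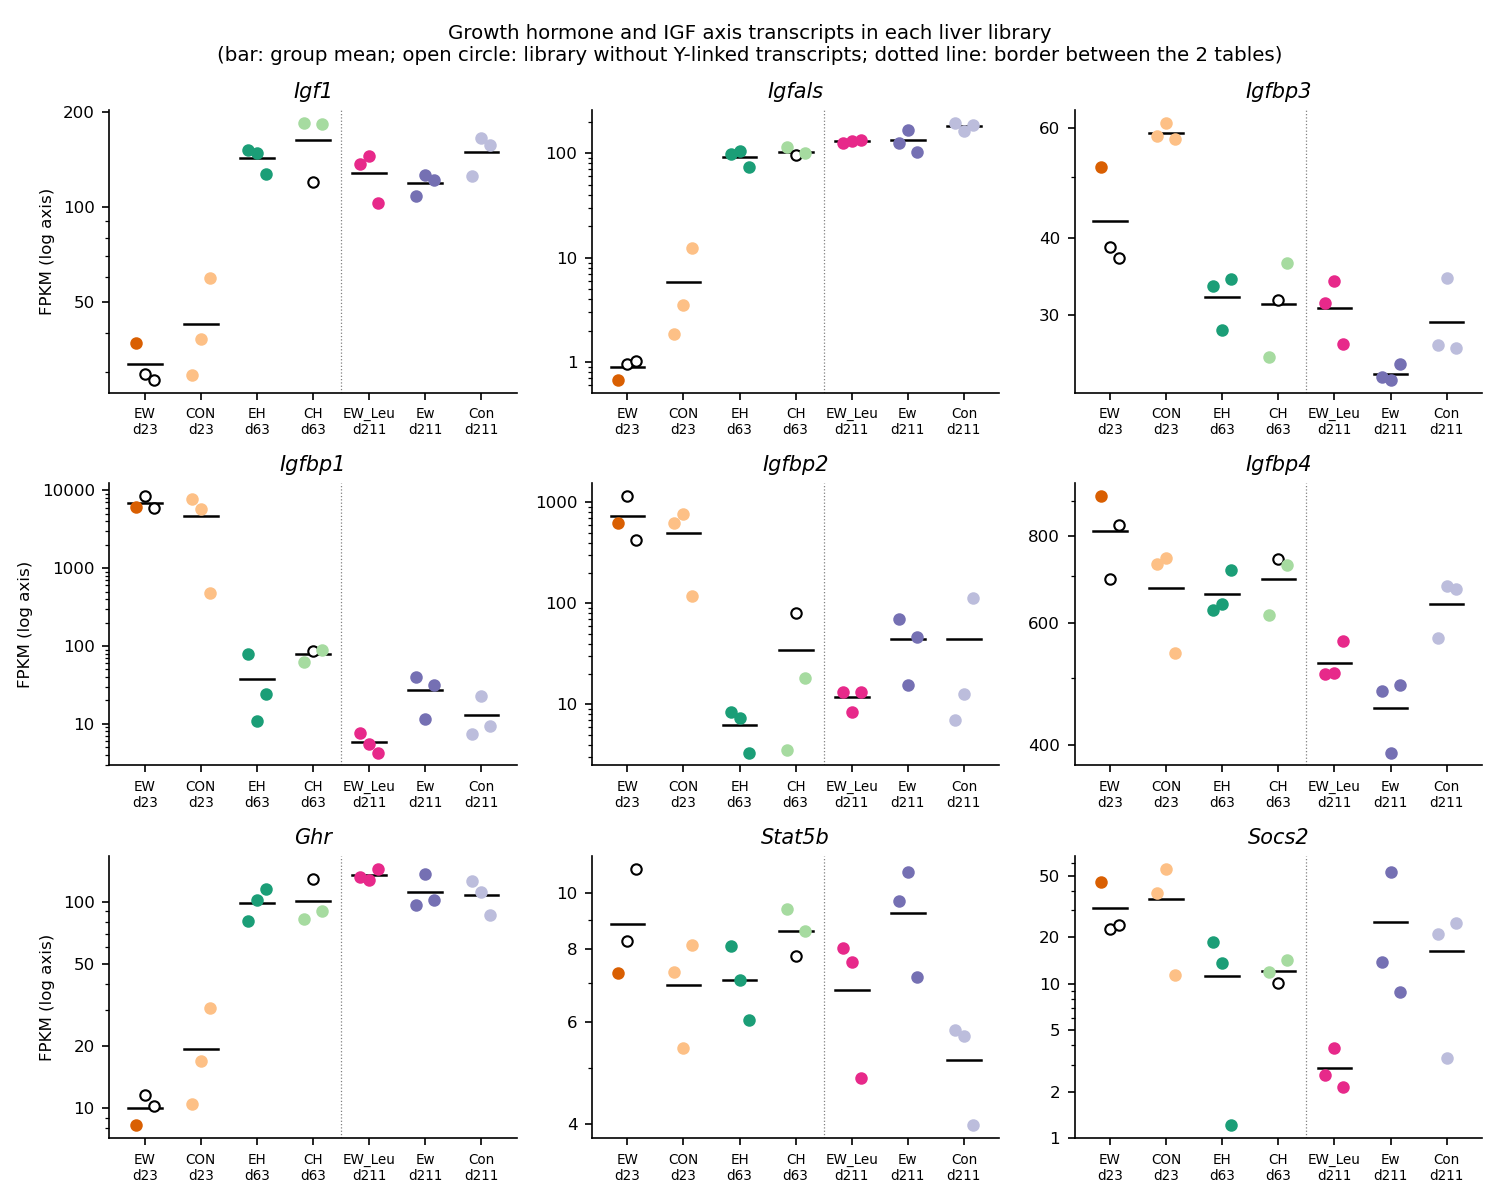
Levels of the 9 genes as deposited FPKM on a log axis, 1 point per library and 1 panel per gene; the bar is the group mean, open circles are the 3 libraries without Y-linked transcripts, and the dotted line separates the 2 tables. Igfbp1 and Igfbp2 are high in both age 23 groups, Igfals, Ghr and Igf1 are low there, and Igfbp4 and Stat5b stay within a narrow band.

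Across the 7 groups the genes differed greatly in how far their levels ranged. The group means of Igfbp1 spanned 1171-fold, those of Igfals 203-fold and those of Igfbp2 116-fold. Ghr spanned 13.4-fold, Socs2 12.3-fold and Igf1 5.11-fold. Igfbp3, Igfbp4 and Stat5b spanned 2.44-fold, 1.80-fold and 1.79-fold. The wide ranges thus belonged to a pair of binding proteins and to the acid-labile subunit, with the receptor and the hormone between them and the steady genes.

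The question of age was asked separately in early-weaned rats (EH d63 against EW d23) and in controls (CH d63 against CON d23). Feeding state is not given, so age and any difference in feeding or sampling between these groups cannot be told apart. In early-weaned rats the receptor, the hormone and the acid-labile subunit rose with age, and Igfbp1 and Igfbp2 fell. Of the 9 genes 3 rose and 2 fell at an adjusted p below 0.05, by edgeR's quasi-likelihood test with Benjamini-Hochberg adjustment over 15416 genes. Over all genes tested 27% passed, 13.5% higher and 13.5% lower. The median log2 difference of the 9 genes was -0.20, against -0.02 over all genes.

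Ghr, the receptor, had 80.2, 102 and 115 FPKM in EH d63 and 8.25, 11.6 and 10.3 FPKM in EW d23. Every EH library was above every EW library, with a log2 fold change of 3.42 ± 0.37 (SE), a 10.7-fold rise (edgeR adjusted p = 0.000678). Igf1, the hormone, had 151, 149 and 127 FPKM in EH d63 and 37.1, 29.7 and 28.4 FPKM in EW d23. Its groups did not overlap either, and it rose 4.87-fold (log2 2.28 ± 0.27, edgeR adjusted p = 0.000886). Igfals, which holds IGF-1 in the large circulating complex, had 98.0, 105 and 73.8 FPKM in EH d63 and 0.680, 0.960 and 1.03 FPKM in EW d23. It rose 112-fold, with a log2 fold change of 6.81 and a 95% interval of 5.34 to 8.27 (edgeR adjusted p = 0.000396). In EW d23 its level was thus close to 1 FPKM, while the hormone it carries was near 30 FPKM.

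Igfbp1 had 77.9, 10.95 and 24.1 FPKM in EH d63 and 6041, 8427 and 5873 FPKM in EW d23. All 3 EW libraries were far above the EH libraries, and Igfbp1 fell 168-fold (log2 -7.39 ± 1.08, edgeR adjusted p = 0.00214). Without library 1 of EH d63 its log2 fold change was -8.46. Igfbp2, which binds both IGF-1 and IGF-2, had 8.35, 7.30 and 3.34 FPKM in EH d63 and 628, 1153 and 428 FPKM in EW d23. It was 108-fold lower in EH d63, again without overlap (log2 -6.76 ± 1.18, edgeR adjusted p = 0.00442). Igfbp3 had 33.4, 28.4 and 34.4 FPKM in EH d63 and 51.9, 38.6 and 37.1 FPKM in EW d23. The groups did not overlap, but with a log2 difference of -0.29 ± 0.17 it did not pass (edgeR adjusted p = 0.221). Socs2 too lay lower in EH d63 without overlap, at 1.21 to 18.7 FPKM against 22.5 to 45.8 FPKM in EW d23, with a log2 difference of -1.35 ± 0.77 (edgeR adjusted p = 0.207). Its lowest value, 1.21 FPKM, was library 3 of EH d63. Igfbp4 and Stat5b had log2 differences of -0.17 and -0.20, and their groups overlapped. In all, 3 genes lay higher and 4 lower without overlap, against 21.3% and 31% of all genes (52.2% in either direction). With only the libraries that held Y-linked transcripts, which leaves 1 library in EW d23, the same 5 genes passed. Their log2 fold changes were then 3.71 for Ghr, 2.07 for Igf1, 7.20 for Igfals, -7.21 for Igfbp1 and -6.51 for Igfbp2.

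In controls the same direction was seen for these 5 genes, and Igfbp3 fell as well. Of the 9 genes 3 rose and 3 fell, against 7.97% and 9.61% of all genes tested, and 17.6% in either direction. Their median log2 difference was 0.05, against -0.04 over all genes. Ghr had 82.7, 129 and 90.4 FPKM in CH d63 and 10.5, 16.9 and 30.6 FPKM in CON d23, a 5.24-fold rise (log2 2.39 ± 0.36, edgeR adjusted p = 0.0034). Igf1 had 184, 120 and 183 FPKM in CH d63 and 29.5, 38.4 and 59.7 FPKM in CON d23, a 3.84-fold rise (log2 1.94 ± 0.26, edgeR adjusted p = 0.0023). Igfals had 115, 96.0 and 100 FPKM in CH d63 and 1.86, 3.54 and 12.3 FPKM in CON d23, a 17.6-fold rise (log2 4.14 ± 0.58, edgeR adjusted p = 0.0025). None of the 3 genes overlapped between the groups, and in each the highest CON value was library 3.

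Igfbp1 had 62.9, 87.0 and 89.7 FPKM in CH d63 and 7721, 5747 and 473 FPKM in CON d23, a 58.2-fold fall (log2 -5.86 ± 1.01, edgeR adjusted p = 0.00701). Igfbp2 had 3.57, 80.7 and 18.4 FPKM in CH d63 and 619, 767 and 119 FPKM in CON d23, a 14.6-fold fall (log2 -3.87 ± 1.03, edgeR adjusted p = 0.0295). Library 3 of CON d23 was the lowest of its group for both, and library 2 of CH d63, without Y-linked transcripts, was the highest of its group for Igfbp2. Igfbp3 had 25.7, 31.7 and 36.4 FPKM in CH d63 and 58.2, 61.1 and 57.7 FPKM in CON d23, a log2 fall of -0.91 ± 0.17 (edgeR adjusted p = 0.00897). The CON libraries were close together and all above the CH libraries. Socs2 differed by -1.54 ± 0.77 on the log2 scale with overlap, and Igfbp4 and Stat5b by 0.05 and 0.31; none of these passed. Without overlap 3 genes lay higher and 3 lower, against 16.7% and 15.7% of all genes (32.4% in either direction).

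Of the 6 calls in controls, Igfbp2 depended on single libraries. Its edgeR adjusted p was 0.0874 without library 1 of CON d23 (log2 -3.66), 0.0880 without library 2 (-3.46), 0.0639 without library 1 of CH d63 (-3.33) and 0.0973 without library 3 (-3.54). Without library 2 of CH d63 it fell by 5.52 on the log2 scale. Without library 3 of CON d23 all 6 genes passed, with log2 fold changes of 5.28 for Igfals, -6.40 for Igfbp1 and -4.33 for Igfbp2. With only the libraries that held Y-linked transcripts, Igfbp1 kept its size (log2 -5.93) at an edgeR adjusted p of 0.0614, and the other 5 genes passed. Leaving out library 3 of CON d23 as well brought all 6 past the threshold.

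**Figure D2:**
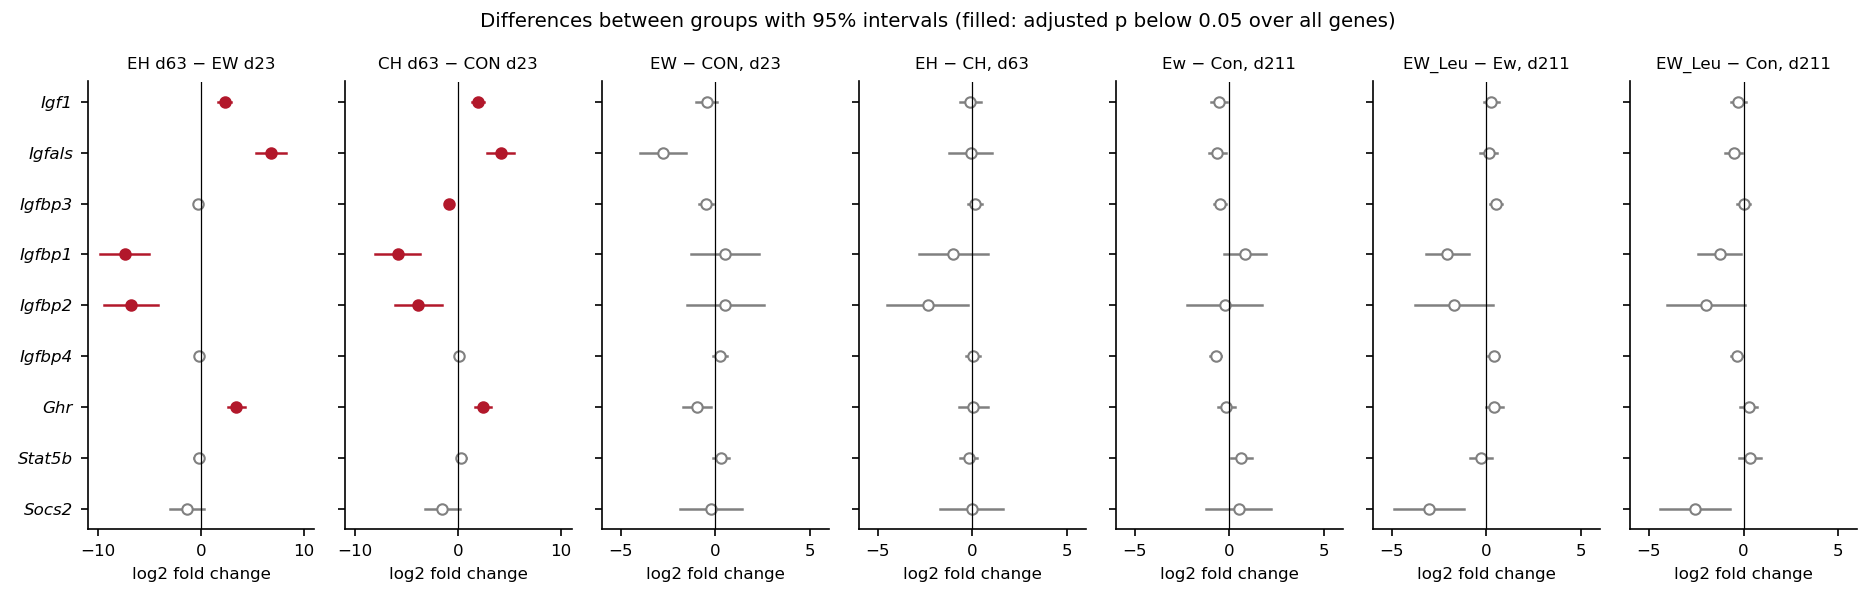
Log2 fold change of each of the 9 genes in the 7 comparisons, with 95% intervals from edgeR; a filled red point has an adjusted p below 0.05 and a positive value means higher in the group named first, and the 2 panels of age have a wider axis. The 2 comparisons of age hold all filled points, 5 in early-weaned rats and 6 in controls, and the intervals are wide for Igfbp1, Igfbp2 and Socs2.

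The make-up of the binding-protein transcripts turned over with age. Of the summed FPKM of Igfbp1 to Igfbp4, Igfbp1 made up 5.05% ± 4.73 in EH d63 and 80.9% ± 1.55 in EW d23 (SD, n = 3 each). It made up 9.47% ± 0.744 in CH d63 and 67.6% ± 24.4 in CON d23. The differences, -75.9 and -58.1 percentage points, each had an exact permutation p of 0.1, the smallest that 3 against 3 allows (0.28 adjusted over the 14 share tests). Without library 3 of CON d23 the second difference was -72.1 points. Igfbp4, whose own level changed little, thereby made up 89.7% ± 5.02 of the sum in EH d63 and 10.1% ± 2.92 in EW d23. In controls it made up 83.1% ± 4.10 in CH d63 and 21.2% ± 21.1 in CON d23. Library 3 of CON d23 departed from its group, with Igfbp4 at 45.5% of the sum and Igfbp1 at 39.7%. Per FPKM of Igf1 there were 0.0737 to 0.515 FPKM of Igfbp1 in EH d63 and 163 to 283 in EW d23. There were 0.342 to 0.727 in CH d63 and 7.93 to 262 in CON d23, where the value of 7.93 was library 3.

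**Figure D3:**
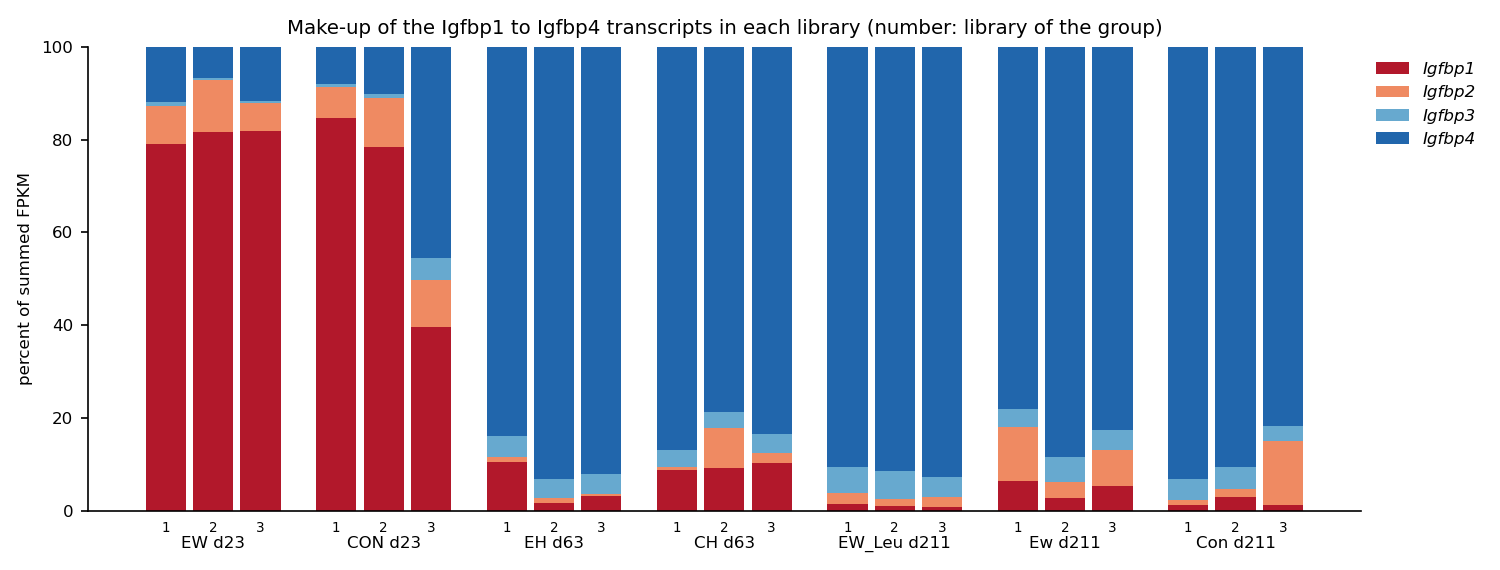
Percent of the summed Igfbp1 to Igfbp4 FPKM taken by each of the 4 genes, 1 stacked bar per library. Igfbp1 takes 79.1 to 81.9% in EW d23 and 39.7 to 84.6% in CON d23, while Igfbp4 takes 78.1 to 93.3% in the libraries of ages 63 and 211.

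Other genes of the pathway changed with age in both directions. Each list's counts are to be read against the shares of all genes tested, 13.5% higher and 13.5% lower in early-weaned rats and 7.97% higher and 9.61% lower in controls. Of 12 partners of growth hormone signalling tested in EH d63 against EW d23, 2 rose and 3 fell. Stat5a (log2 1.58), a further transcription factor below Jak2, and the phosphatase Ptpn6 (0.64) rose, while the inhibitor Socs3 (-2.26) and the adaptors Sh2b1 (-0.69) and Grb10 (-1.91) fell. In controls Jak2 (1.01) and Ptpn6 (1.01) rose, and Sh2b1 (-0.49) and Grb10 (-1.30) fell. The median log2 difference of the 12 was -0.44 in early-weaned rats and -0.17 in controls. Of 10 other genes of IGF action tested, Igf2r (2.17), a receptor that clears IGF-2, and the protease Htra1 (1.25) rose in early-weaned rats and Igfbp5 (-3.38) fell, a count near the 27% of all genes that passed in either direction. In controls Htra1 (1.14) rose and no gene of this list fell. The median of the 10 was -0.34 in early-weaned rats and -0.45 in controls.

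Among 12 tested genes that respond to growth hormone or differ by sex in rat liver, 6 rose and 1 fell in EH d63 against EW d23, with a median log2 difference of 1.41. The cytochromes Cyp2c11 (11.58), Cyp2c13 (9.02) and Cyp2c7 (5.21), the steroid enzyme Hsd3b5 (7.57), Serpina3c (1.91) and the repressor Bcl6 (2.07) rose, and Cux2 (-4.56), a factor of female liver in mouse and rat, fell. In controls 7 rose and 0 fell, with a median of 2.84: Cyp2c11 (10.22), Cyp2c13 (8.21), Cyp2c7 (6.24), Hsd3b5 (9.68), A1bg (7.85), Serpina3c (1.51) and Bcl6 (3.28). Reads of these cytochrome and serpin families may be shared between near copies, so their values are uncertain. With only the libraries that held Y-linked transcripts, 5 of the 7 calls remained in early-weaned rats (not Bcl6 and Cux2) and 6 of 7 in controls (not A1bg).

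Igfbp1 and Igfbp2 stood beside genes of fasting, amino acid stress and glucocorticoid action that moved the same way with age. Of 11 genes of insulin and FoxO1 action tested in early-weaned rats, 6 fell and 2 rose (median log2 difference -2.01). The gluconeogenic enzyme G6pc (-3.72), its coactivator Ppargc1a (-5.97), the insulin receptor substrate Irs2 (-4.41), Trib1 (-2.87), Foxo3 (-2.71) and Klf15 (-1.35) fell. The lipogenic factor Srebf1 (2.17) and the lipase inhibitor Angptl4 (1.40) rose. In controls G6pc (-2.62), Ppargc1a (-4.51) and Irs2 (-3.25) fell and Srebf1 (1.41) rose, with a median of -1.87. The summed level of this list was 1180.0 to 1821 FPKM in EH d63, 3051 to 5298 in EW d23, 1630 to 2096 in CH d63 and 2054 to 5743 in CON d23.

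Of 11 genes of amino acid stress, 6 fell in early-weaned rats, among them Chac1 (-8.87) and Ddit4 (-6.02). Against them 1 gene, Fgf21, rose by 10.25 on the log2 scale, a value that ranged from 2.05 to 11.04 under the alternative fits. Atf4 (-1.13), the transcription factor of this response, Nupr1 (-2.94), Trib3 (-1.92) and Sesn2 (-1.75) fell too. In controls 5 fell and 0 rose: Atf4 (-1.24), Chac1 (-7.16), Ddit4 (-5.71), Nupr1 (-3.96) and Trib3 (-2.21). Their median was -1.13 in early-weaned rats and -1.23 in controls. Of 8 glucocorticoid-responsive genes, Zbtb16 (-4.72), Tat (-2.81), Per1 (-1.57) and Dusp1 (-1.29) fell in early-weaned rats. In controls Tat (-2.44) and Dusp1 (-1.30) fell, and in neither did any of the 8 rise. Their median was -1.29 in early-weaned rats and -0.85 in controls.

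These list counts rest on few libraries. With only the libraries that held Y-linked transcripts, 1 of the 8 FoxO1 calls, 0 of the 7 amino acid stress calls and 1 of the 4 glucocorticoid calls remained in early-weaned rats, where 1 EW d23 library was left. Of the 5 signalling calls 1 remained there, and of the 3 IGF calls 0. In controls 0 of the 4 FoxO1 calls, 0 of the 5 amino acid stress calls, 0 of the 2 glucocorticoid calls, 0 of the 4 signalling calls and 1 of 1 IGF call remained. Leaving out library 3 of CON d23 as well, 3, 5, 2, 3 and 1 of these control calls remained.

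Markers of some other cells moved with age too. In early-weaned rats 7 of 11 endothelial markers fell, among them Stab2 (-1.52) and Lyve1 (-1.61), against 13.5% of all genes, and their summed level was 71.8 to 107 FPKM in EH d63 and 153 to 192 FPKM in EW d23. In controls Stab1 (-0.63) and Lyve1 (-0.89) fell, against 9.61% of all genes, with sums of 102 to 152 FPKM in CH d63 and 160 to 170 FPKM in CON d23. With only the libraries that held Y-linked transcripts, 1 of the 7 endothelial calls remained in early-weaned rats and 0 of the 2 in controls, where both remained with library 3 of CON d23 left out as well. The median log2 difference of the endothelial markers was -0.91 in early-weaned rats and -0.31 in controls. Lists of other non-parenchymal cells differed from this. The medians were -0.07 and 0.09 for Kupffer cell markers, -0.08 and -0.21 for stellate markers and 1.40 and 2.91 for lymphocyte markers. Igfbp3, which in rat liver is made mainly by non-parenchymal cells, lay lower at age 63 in both comparisons. In EH d63 against CH d63 all 11 endothelial markers lay lower (median log2 difference -0.62), while Igfbp3 differed by 0.13. In EW d23 against CON d23, 9 lay higher and 2 lower (median 0.05), while Igfbp3 differed by -0.50. In Ew d211 against Con d211, 3 lay higher and 8 lower (median -0.18), with Igfbp3 at -0.49. No endothelial marker passed in these 3 comparisons, and their part in the Igfbp3 values was not tested. The summed hepatocyte markers were 84466 to 92393 FPKM in EH d63 and 56579 to 66853 FPKM in EW d23, against 84858 to 86215 FPKM in CH d63 and 75553 to 120986 FPKM in CON d23. In whole liver, fewer cells of a type and less RNA per cell cannot be told apart.

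At age 23 the comparison of EW with CON asked whether early weaning had left a mark by then. None of the 9 genes passed edgeR's test, against 0.013% of all genes (0.00649% in each direction). At an unadjusted p below 0.05 there were 3, against 6.2% of all genes, and DESeq2 called 1, Igfals, among 116 genes. Igfals had 0.680, 0.960 and 1.03 FPKM in EW d23 and 1.86, 3.54 and 12.3 FPKM in CON d23. All EW libraries lay below all CON libraries, with a log2 difference of -2.75 ± 0.56 and an interval of -3.98 to -1.52 (edgeR adjusted p = 0.286, DESeq2 adjusted p = 5.46e-05). Without library 3 of CON d23 the difference was -1.61 (edgeR adjusted p = 0.134), and with that library but only those holding Y-linked transcripts it was -3.14 on 1 EW library (edgeR adjusted p = 0.990). The summed hepatocyte markers also lay lower, at 56579 to 66853 FPKM in EW d23 and 75553 to 120986 FPKM in CON d23. Singly, 5 of the 9 markers lay higher and 4 lower, with a median log2 difference of 0.02. The part of hepatocyte RNA in the Igfals value was not tested. Igfbp3 was the other gene that lay lower without overlap, at 51.9, 38.6 and 37.1 FPKM in EW d23 and 58.2, 61.1 and 57.7 FPKM in CON d23. Its log2 difference was -0.50 ± 0.17 (edgeR adjusted p = 0.691), and -0.22 with only the libraries that held Y-linked transcripts. Of all genes 8.3% were free of overlap, 4.12% lower and 4.18% higher, and no member lay higher without overlap.

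Ghr had a log2 difference of -0.97 ± 0.34 with overlap (edgeR adjusted p = 0.728), and -0.47 without library 3 of CON d23. Igf1 differed by -0.45, Igfbp4 by 0.24, Socs2 by -0.22 and Stat5b by 0.32. The differences of Igfbp1 (0.52 ± 0.82) and Igfbp2 (0.54 ± 0.92) had no steady sign: without library 3 of CON d23 they were -0.02 and 0.08. The median of the 9 was -0.22, against -0.03 over all genes.

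Library 3 of CON d23 was the lowest or the highest of its group in several members. It held 473 FPKM of Igfbp1, against 7721 and 5747 in the other 2, and 119 FPKM of Igfbp2, against 619 and 767. It held 11.4 FPKM of Socs2, against 38.9 and 55.3, while Igfals, Ghr and Igf1 were the highest of the group. The same library was low in Tat, at 561 FPKM against 5008 and 3641, in Chac1, at 0.81 FPKM against 268 and 148, and in Btg2, at 8.48 FPKM against 589 and 392. Its summed amino acid stress genes came to 151 FPKM, within the 126 to 252 FPKM of the age 63 libraries and below the 1278 to 1926 FPKM of EW d23. Its hepatocyte markers summed to 120986 FPKM, the highest of all libraries. The part of feeding state, sampling or cell make-up in this library was not tested.

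**Figure D4:**
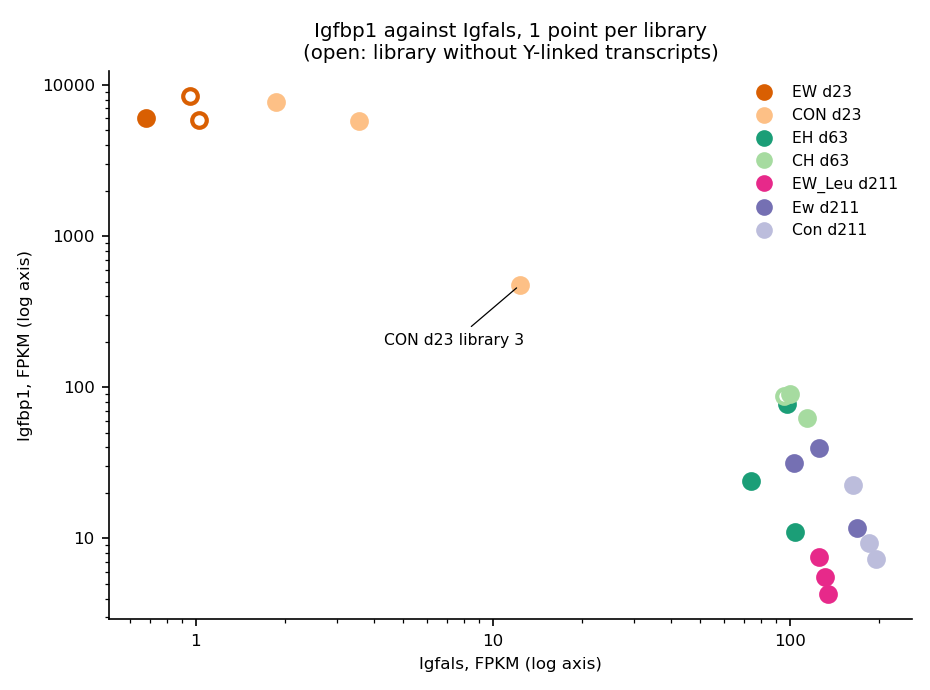
Igfbp1 against Igfals, both as FPKM on log axes, 1 point per library in the colour of its group; the 2 tables were normalized separately. Of the 6 age 23 libraries, 5 lie at 5747 to 8427 FPKM of Igfbp1 and 0.680 to 3.54 FPKM of Igfals, and library 3 of CON d23 lies at 473 and 12.3 FPKM, between them and the older libraries.

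**Figure D5:**
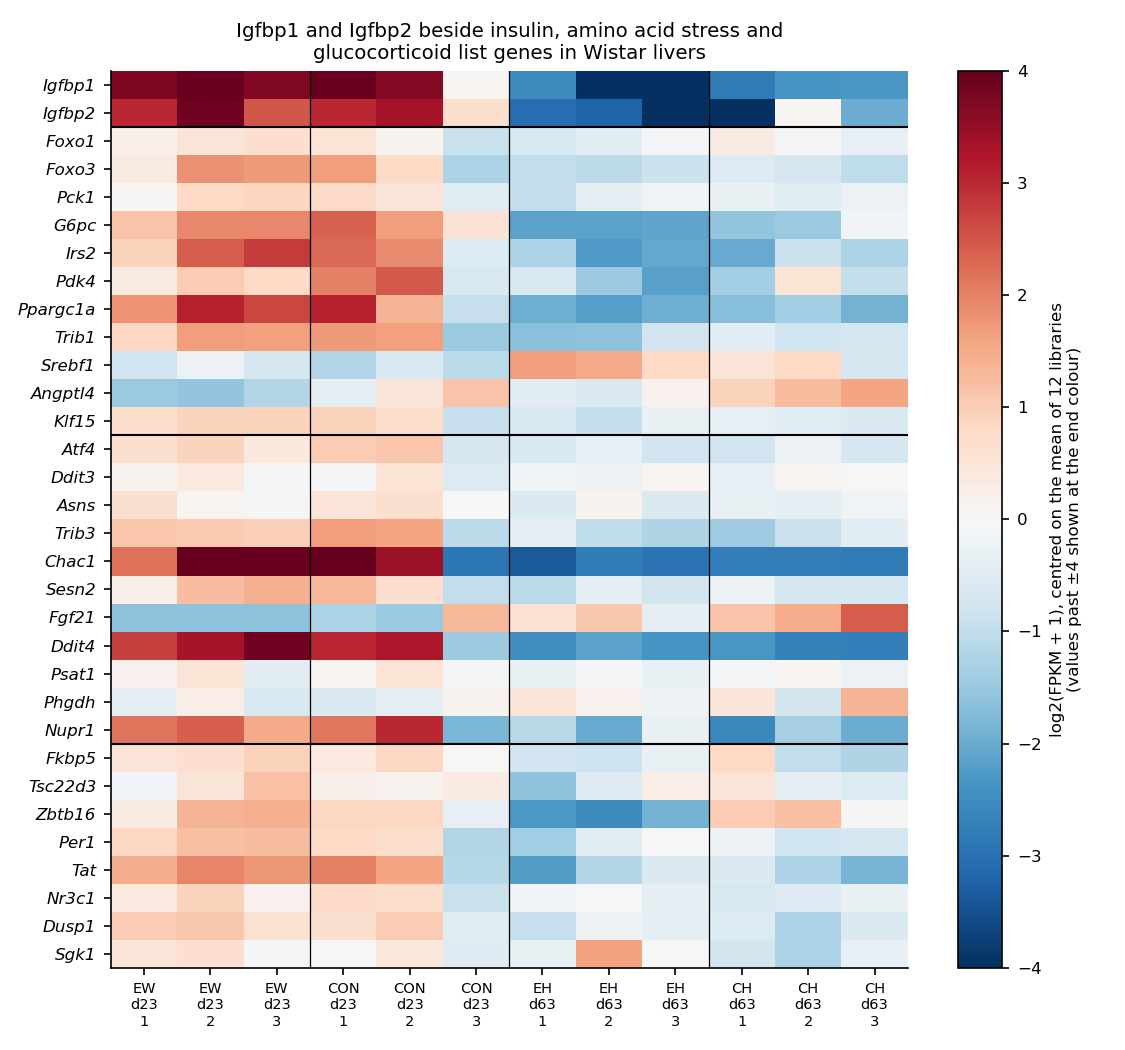
Igfbp1, Igfbp2 and every tested gene of the FoxO1, amino acid stress and glucocorticoid lists in the 12 Wistar libraries, as log2(FPKM + 1) centred on each gene's mean, with colours limited at -4 and 4. Library 3 of CON d23 is lower in Igfbp1, Igfbp2, Tat, Chac1 and Ddit4 than the other 5 age 23 libraries.

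At age 63 none of the 9 genes differed between EH and CH by edgeR's test, and neither did any other gene (0% of genes; 1 member at an unadjusted p below 0.05, against 6.05% of all genes; DESeq2 called 0 members and 89 genes). Igfbp2 had 8.35, 7.30 and 3.34 FPKM in EH d63 and 3.57, 80.7 and 18.4 FPKM in CH d63, with overlap. Its log2 difference of -2.35 ± 0.97 (edgeR adjusted p = 0.793) was -0.69 without library 2 of CH d63. Igfbp1 differed by -1.01 ± 0.83 (edgeR adjusted p = 0.961), with 10.95 to 77.9 FPKM in EH d63 and 62.9 to 89.7 FPKM in CH d63. Igfals, at 73.8 to 105 FPKM in EH d63 and 96.0 to 115 FPKM in CH d63, differed by -0.08 with an interval of -1.22 to 1.05. The remaining 6 genes differed by -0.19 to 0.13, and no member was free of overlap, against 18.6% of all genes (4.93% higher and 13.7% lower). The median of the 9 was -0.08, against -0.01 over all genes.

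Whether the effect of early weaning itself differed between the ages was tested as (EH - CH) - (EW - CON). None of the 9 genes passed by edgeR (0.00649% of all genes passed; 2 members at an unadjusted p below 0.05, against 4.72% of all genes; DESeq2 called 0 members and 45 genes). Igfals had the largest positive estimate among the members, 2.67 ± 0.75 (edgeR adjusted p = 0.975), which was 1.53 without library 3 of CON d23. Igfbp3 had 0.62 ± 0.24 and Ghr 1.03 ± 0.48. Igfbp1 had -1.52 ± 1.16 and Igfbp2 -2.89 ± 1.33, the last -1.24 without library 2 of CH d63.

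At age 211 the Sprague Dawley rats carried the axis at adult levels, with Igf1 at 103 to 165 FPKM, Ghr at 86.3 to 144 FPKM and Igfals at 103 to 195 FPKM over the 9 libraries. Early weaning without leucine (Ew against Con) gave no member past edgeR's threshold, against 0.719% of 15019 genes (0.419% higher and 0.3% lower), and 5 members at an unadjusted p below 0.05, against 17.3% of all genes. DESeq2 called 2, Igfbp4 and Igfals, among 1123 genes, where edgeR called 108. Igfbp4, the most abundant of the 4 binding-protein transcripts here, had 479, 390 and 488 FPKM in Ew d211 and 570, 677 and 671 FPKM in Con d211. All 3 Ew libraries lay below all Con libraries, with a log2 difference of -0.72 ± 0.13 (edgeR adjusted p = 0.05004, just above the threshold of 0.05). It passed without library 2 of Ew d211 (-0.66, edgeR adjusted p = 0.0438) and without library 1 of Con d211 (-0.82, edgeR adjusted p = 0.0420).

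Igfals had 126, 169 and 103 FPKM in Ew d211 and 195, 163 and 185 FPKM in Con d211, where library 2 of Ew d211 overlapped the controls. Its log2 difference was -0.64 ± 0.20 (edgeR adjusted p = 0.137, DESeq2 adjusted p = 0.0414), and on leaving out 1 library it ranged from -0.91 without that library (edgeR adjusted p = 0.0105) to -0.46 without library 3 of Ew d211 (edgeR adjusted p = 0.327). Igfbp3, its partner in the large complex, had 23.8, 23.6 and 25.1 FPKM in Ew d211 and 26.9, 34.4 and 26.6 FPKM in Con d211. The groups did not overlap (log2 -0.49 ± 0.15, edgeR adjusted p = 0.138). Igf1 had 108, 126 and 122 FPKM in Ew d211 and 125, 165 and 157 FPKM in Con d211, with a small overlap (log2 -0.54 ± 0.18, edgeR adjusted p = 0.166). Stat5b had 9.68, 10.9 and 7.16 FPKM in Ew d211 and 5.80, 5.68 and 3.97 FPKM in Con d211, higher without overlap (log2 0.64 ± 0.26, edgeR adjusted p = 0.243). Stat5b lay higher and the transcripts of the circulating complex lay lower, none of them past edgeR's threshold. Of all genes 20.8% lay higher without overlap here, and a link between Stat5b and the others was not tested. Of the hepatocyte markers 8 of 9 lay lower in Ew d211 (median log2 difference -0.33), with overlapping sums of 73027 to 79424 FPKM in Ew d211 and 73984 to 80360 FPKM in Con d211. All 6 cholangiocyte markers lay higher (median 0.50), with sums of 16.1 to 30.6 FPKM in Ew d211 and 8.26 to 13.5 FPKM in Con d211. None of these markers passed, and their part in the members' values was not tested.

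Igfbp1 differed by 0.81 ± 0.50, Socs2 by 0.49, Ghr by -0.15 and Igfbp2 by -0.25, all with overlap. For Igfbp2 the sign rested on library 3 of Con d211, which held 114 FPKM against 7.06 and 12.7 in the other 2; without it the difference was 1.89. Without overlap 1 member lay higher and 2 lower, against 20.8% and 4.24% of all genes (25% in either direction). Overlap was read from FPKM, whereas edgeR also scales each library by a TMM factor. That factor was 1.13, 1.02 and 1.13 in Ew d211 and 0.977, 0.896 and 0.944 in Con d211. The size of a difference here therefore depends on the normalization. Mean Ghr, for example, was 111 FPKM in Ew d211 and 108 FPKM in Con d211, although its edgeR difference was negative. The median of the 9 genes was -0.25. Of the 6 pathway lists, 1 gene passed: Sult2a1, a sulfotransferase, which fell by 2.76 on the log2 scale, at 31.5 ± 17.5 FPKM in Ew d211 and 188 ± 47.9 FPKM in Con d211 (SD, n = 3 each, edgeR adjusted p = 0.0357). The genes of smallest p in the other lists were Stat5a at 0.85, Igf2r at 0.25, Klf15 at -0.86, Fgf21 at -1.62 and Fkbp5 at -0.42, and none passed.

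Leucine in early-weaned rats (EW_Leu against Ew) moved no member past edgeR's threshold, against 0.36% of all genes, with 4 members at an unadjusted p below 0.05, against 13.1% of all genes. DESeq2 called 2, Igfbp1 and Socs2, among 781 genes, where edgeR called 54. Igfbp1 had 7.52, 5.57 and 4.28 FPKM in EW_Leu d211 and 39.5, 11.7 and 31.5 FPKM in Ew d211. Each leucine library lay below each Ew library, with a log2 difference of -2.06 ± 0.51 and an interval of -3.22 to -0.91 (edgeR adjusted p = 0.108, DESeq2 adjusted p = 0.000764). It passed edgeR's test without library 2 of Ew d211 (-2.42, edgeR adjusted p = 0.0298). Socs2 had 2.58, 3.83 and 2.14 FPKM in EW_Leu d211 and 13.8, 52.7 and 8.89 FPKM in Ew d211, again with no overlap. Its difference of -3.04 ± 0.83 (edgeR adjusted p = 0.139, DESeq2 adjusted p = 0.0200) was -1.79 without library 2 of Ew d211, the library at 52.7 FPKM.

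Igfbp2 lay lower in the leucine group as well, at 13.4, 8.42 and 13.4 FPKM in EW_Leu d211 and 70.7, 15.7 and 46.2 FPKM in Ew d211 (log2 -1.72 ± 0.91, edgeR adjusted p = 0.488). Igfbp3 and Igfbp4 lay higher without overlap. Igfbp3 had 31.4, 34.0 and 27.0 FPKM in EW_Leu d211, against 23.8, 23.6 and 25.1 FPKM in Ew d211 (log2 0.51 ± 0.15, edgeR adjusted p = 0.171). Igfbp4 had 506, 508 and 564 FPKM in EW_Leu d211, against 479, 390 and 488 FPKM in Ew d211 (log2 0.38 ± 0.13, edgeR adjusted p = 0.246). Ghr differed by 0.41, Igf1 by 0.26, Igfals by 0.11 and Stat5b by -0.30, with overlap. Without overlap 2 members lay higher and 3 lower, against 5.07% and 17.8% of all genes (22.9% in either direction).

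Of the summed binding-protein FPKM, Igfbp1 took 1.02% ± 0.323 in EW_Leu d211 and 4.81% ± 1.96 in Ew d211 (SD, n = 3 each). That difference of -3.79 points had an exact permutation p of 0.1, the smallest possible (0.28 adjusted). Igfbp2 took 2.04% ± 0.464 in EW_Leu d211 and 7.64% ± 3.99 in Ew d211, with the same exact p. Among the pathway lists 1 gene passed: Klf15, a factor of fasting metabolism, rose by 1.10 on the log2 scale, with 35.8 ± 2.69 FPKM in EW_Leu d211 and 18.6 ± 2.88 FPKM in Ew d211 (edgeR adjusted p = 0.0448). That call was kept in 6 of 13 alternatives. On leaving out 1 library the Klf15 difference was 1.04 to 1.19, with an edgeR adjusted p of 0.0310 to 0.182. The genes of smallest p in the other lists were Sult2a1 at 1.75, Atf4 at -0.73, Sgk1 at 1.01, Jak2 at -0.53 and Igf2r at -0.22. All 11 tested endothelial and all 11 tested Kupffer cell markers lay higher in the leucine group, none past the threshold, with median log2 differences of 0.36 and 0.22; their part in the Igfbp3 values was not tested.

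Set against controls (EW_Leu against Con), the leucine group showed no member past edgeR's threshold (0.0133% of all genes passed, 0.00666% in each direction; 4 members at an unadjusted p below 0.05, against 10.8% of all genes; DESeq2 called 0 members and 201 genes). This comparison shares its leucine libraries with the one above and its controls with the comparison of Ew and Con. Socs2 had 2.14 to 3.83 FPKM in EW_Leu d211 and 21.01, 3.33 and 24.8 FPKM in Con d211 (log2 -2.55 ± 0.82, edgeR adjusted p = 0.374). Only library 2 of Con d211 reached down into the leucine range. Igfals had 125, 131 and 134 FPKM in EW_Leu d211 and 163 to 195 FPKM in Con d211, lower without overlap (log2 -0.53 ± 0.20, edgeR adjusted p = 0.419). Igfbp4 was lower too, at 506 to 564 FPKM in EW_Leu d211 and 570 to 677 FPKM in Con d211 (log2 -0.34 ± 0.13, edgeR adjusted p = 0.431). Ghr was higher without overlap, at 127 to 144 FPKM in EW_Leu d211 and 86.3 to 125 FPKM in Con d211 (log2 0.26 ± 0.20, edgeR adjusted p = 0.671).

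Igfbp1 differed by -1.26 ± 0.50 in this comparison (edgeR adjusted p = 0.438). Igfbp2 differed by -1.97 ± 0.92, a value that rested on library 3 of Con d211 and was 0.17 without it. Igfbp3, Igf1 and Stat5b differed by 0.01, -0.28 and 0.34. Higher and lower without overlap were 1 and 2 members, against 9.94% and 6.39% of all genes (16.3% in either direction). In the pathway lists Stat3 (-0.45), Insr (0.42), Cux2 (-1.73), Angptl4 (-1.43), Fgf21 (-2.00) and Sgk1 (0.78) had the smallest p, and none passed.

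At ages 23 and 63 likewise, no pathway gene passed between early-weaned rats and controls. The genes of smallest p at age 23 were Socs1 (-1.37), Igfbp7 (-0.49), Cyp3a18 (2.36), Angptl4 (-2.11) and Per1 (0.75), beside Fgf21. At age 63 they were Prlr (-3.32), Igf2 (-1.18), Cux2 (-5.14), Angptl4 (-1.48), Nupr1 (1.00) and Zbtb16 (-4.45). Of the 6 libraries of that age, Prlr and Cux2 were highest in library 2 of CH d63, which had no Y-linked transcripts. Without that library their log2 differences were -1.37 and -4.33, and neither passed.

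The order of the group means, from highest to lowest, showed how far neighbouring groups could be told apart. Igfals had 181 ± 16.3 FPKM in Con d211, 133 ± 33.1 in Ew d211, 130 ± 4.70 in EW_Leu d211, 104 ± 9.69 in CH d63, 92.1 ± 16.2 in EH d63, 5.91 ± 5.63 in CON d23 and 0.890 ± 0.185 in EW d23 (SD, n = 3 each). Neighbours in this order overlapped within each adult age, and they did not overlap between EW_Leu d211 and CH d63, between EH d63 and CON d23 or between CON d23 and EW d23. Igfbp1 ran the other way, with 6781 ± 1429 FPKM in EW d23 and 4647 ± 3747 in CON d23, then 79.9 ± 14.8 in CH d63, 37.7 ± 35.5 in EH d63, 27.6 ± 14.4 in Ew d211, 13.1 ± 8.26 in Con d211 and 5.79 ± 1.64 in EW_Leu d211. The only neighbours in that order that did not overlap were CON d23 and CH d63. Socs2, from 35.2 ± 22.2 FPKM in CON d23 down to 2.85 ± 0.877 in EW_Leu d211, overlapped at every step of its order.

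The profiles most like those of the 3 most variable members were sought among 10388 genes at a mean of at least 1 FPKM, over all 21 libraries. Likeness is the root mean square difference between centred log2(FPKM + 1) profiles, divided by that of the member itself, so that 0 is the same profile and 1 is as far as a flat one. Closest to Igfbp1 were Gadd45b (0.311), Btg2 (0.333) and Ddit4 (0.404). Closest to Igfbp2 were Gadd45b (0.453), Igfbp1 itself (0.466) and Qsox1 (0.489). Closest to Igfals were Inhbe (0.293), Bdh1 (0.337) and Inhbc (0.343), with Ghr at 0.461 and Igf1 at 0.603. Inhbe, which encodes an activin subunit of liver, was listed at 0 in the 3 EW d23 libraries and at 20.0 FPKM in library 3 of CON d23, against 0.07 and 0 in the other CON libraries. Gadd45b, a stress-response gene, had 240 to 310 FPKM in EW d23 and 12.8 to 398 FPKM in CON d23, and 1.46 to 7.74 FPKM in the 15 libraries of ages 63 and 211. These likenesses are descriptions over libraries that share ages and tables.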

How the data were processed

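RNA-seq of rat liver was deposited by the authors as 1 table for Wistar (12 libraries) and 1 for Sprague Dawley rats (9). Per the labels' protocols, an RNeasy kit gave the total RNA and a SMARTER mRNA kit the libraries. Per the file headers, the tables hold FPKM and a count per gene and library. The deposited counts are whole, yet low ones cluster at 4 and 8, so they were treated as estimated counts. GRCm38 and mm10, which are mouse builds, appear in the submitters' processing notes, but the tables hold rat Ensembl identifiers with coordinates of an unnamed build. The aligner and the counting tool are not named by any label or header used here. The read assignment behind a rat gene value is therefore unknown, and so is its effect on levels between genes.

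Each table was fitted alone with edgeR 4.0.16 in R 4.3.3 (TMM, filterByExpr with a minimum count of 10, 1 mean per group, two-sided quasi-likelihood test), with Benjamini-Hochberg adjustment over 15416 Wistar and 15019 Sprague Dawley genes; 0.05 was the threshold. Fits were tested on simulated data with known changes, where most 4-fold changes were called and most 2-fold changes were not. A difference that did not pass is thus not shown to be absent. Shares of summed FPKM were compared by exact permutation tests (Python 3.11.15 with numpy 2.4.6). Alternatives were DESeq2 1.42.0, limma 3.58.1 on log2(FPKM + 1) and log2(FPKM + 0.1), no filter, counts divided by 4, a replicate block, the compared groups alone and leaving out each library. Fits on libraries with Y-linked transcripts, without library 3 of CON d23 as well, or with Y-linked transcripts as a term were added after seeing the data. No 2 libraries were alike enough to be one deposited more than once.

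The 9 genes and all lists were chosen with earlier results of these data known. The text names the 9 genes, each list gene past the threshold, otherwise the list's gene of smallest p in a comparison of early weaning or leucine, the 3 genes most alike in profile to each of the 3 most variable members, and markers of a cell type that moved with a member. Samples were grouped by their labels, and none was left out of the main fits. A few genes of the pathway lists are not reported here.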

Additional observations from a re-analysis of the deposited data

How the results depend on the processing

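Of 666 alternative values for single members, 639 kept direction and side of the threshold, 7 lost and 10 gained the threshold and 10 changed sign; none of the 10 had passed the test. The 5 members called in EH d63 against EW d23 were called under every alternative, while calls over all genes ranged from 552 to 5414 (main 4161). In CH d63 against CON d23 the count ranged from 4 (compared groups alone, where Igfbp2 had an edgeR adjusted p of 0.121 and Igfbp3 of 0.0612) to 6, with 281 to 6001 calls over all genes (main 2710). Members called were 1 with DESeq2 in EW d23 against CON d23, 2 with DESeq2, 1 with counts divided by 4 and 0 to 2 on leaving out 1 library in Ew d211 against Con d211, and 2 with DESeq2 and 0 to 1 on leaving out 1 library in EW_Leu d211 against Ew d211, all against 0 in the main test. Calls over all genes ranged from 0 to 116 in EW d23 against CON d23 (main 2), 0 to 89 in EH d63 against CH d63 (main 0), 0 to 45 in the difference of these effects (main 1, with no fit of the compared groups alone), 2 to 1123 in Ew d211 against Con d211 (main 108), 1 to 781 in EW_Leu d211 against Ew d211 (main 54) and 2 to 201 in EW_Leu d211 against Con d211 (main 2).

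Signs changed for Igfbp1 in EW d23 against CON d23 (log2 -0.018 without library 3 of CON d23; -0.20 with only libraries holding Y-linked transcripts and that library left out; -0.018 to 1.14 on leaving out 1 library). Igfbp2 in that comparison was -0.17 under the same pair of exclusions and -0.42 with Y-linked transcripts as a term. Igfbp2 in Ew d211 against Con d211 was 0.72 and 0.77 with limma at pseudocounts of 1 and 0.1, 0.25 with the replicate block, 0.14 without library 2 of Ew d211 and 1.89 without library 3 of Con d211 (-0.76 to 1.89 on leaving out 1 library). Igfbp2 in EW_Leu d211 against Con d211 ranged from -2.48 to 0.17 on leaving out 1 library. On leaving out 1 library the Igfbp1 share in EW d23 against CON d23 ranged from -0.629 to 21.8 points, the Igfbp2 share there from -1.99 to 0.615 points, in Ew d211 against Con d211 from -0.132 to 6.21 points and in EW_Leu d211 against Con d211 from -5.73 to 0.609 points. The cause of these changes was not tested.

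Replicate numbers were not taken as pairs: same-numbered libraries had correlations of -0.108 to 0.127, and in no comparison were all above 0.1. They were all positive in EH d63 against EW d23 (0.031 to 0.039), EW d23 against CON d23 (0.045 to 0.127) and EW_Leu d211 against Con d211 (0.0070 to 0.122). With 3 libraries a group, such correlations cannot exclude a pairing. With the numbers as a block, 5, 6 and 0 members were called as before, with 3774 genes in EH d63 against EW d23 and 2156 in CH d63 against CON d23. Of 1038 alternative values for pathway genes and endothelial markers, 755 kept their call and 283 lost it. With 3 libraries a group, an exact test of a single share cannot go below 0.1.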
